A study of Mus musculus with 16 samples.

Results

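The respiratory chain genes were followed across bulk RNA-seq libraries from mouse tumours, described for the Ikbkb mice as sorted dendritic cells. They were the 96 rows of the count table, of 32697 in all, whose Ensembl identifier maps to a protein-coding gene with a symbol of complexes I to V. Members began with mt- (11 genes) or carried a nuclear subunit symbol (85 genes: Nduf a, b, c, s or v with a number, Sdha to Sdhd, Uqcr, Cyc1, Cox4 to Cox8 and Atp5). By complex the nuclear members numbered 37 for complex I, 4 for complex II, 9 for complex III, 18 for complex IV and 17 for complex V. The mitochondrial members numbered 6, 0, 1, 2 and 2. The selection rule used names only, but it was chosen with earlier results of these data known. No row for mt-Co3 or mt-Nd4l was among the 96, so these 2 genes were not analysed here.

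The respiratory chain sits in the inner mitochondrial membrane and couples the oxidation of NADH and succinate to the pumping of protons, which ATP synthase uses to make ATP. Complexes I, III, IV and V are mosaics: a small core is encoded in mitochondrial DNA, transcribed inside the organelle as long polycistronic RNAs, and the remaining subunits are encoded in the nucleus and imported. Complex II, which is also an enzyme of the citrate cycle, is wholly nuclear. Type 1 conventional dendritic cells (cDC1s) are the subset that cross-presents tumour antigen to CD8 T cells.

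The 16 libraries came from YUMM1.7 tumours, an engrafted mouse melanoma line, grown to between 200 and 350 mm3. The series design describes cDC1s sorted from tumours of female mice, and names the Ikbkb mice only. The genotype labels gave 4 groups of 4 libraries. IKKbFF (Ikbkb control) and IKKbdeltaXCR1 (Ikbkb-deleted, the kinase subunit IKKβ removed by a deletion driven from the cDC1 gene Xcr1) form the Ikbkb set. IRF1FF (Irf1 control) and IRF1deltaXCR1 (Irf1-deleted, the transcription factor IRF1 removed in the same way) form the Irf1 set, and their group rests on the genotype label alone. All controls carry the floxed allele, and no treatment beyond engraftment was recorded. Each library was amplified from 1000 pg of RNA, with 12 PCR cycles for the cDNA and 12 for the library. The labels do not say whether replicates were separate animals, so each test weighs a difference against the spread among libraries that may be technical, and mouse line, litter and handling cannot be told apart from the difference between the sets.

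Total counts per library ranged from 16478671 to 27433818. Ikbkb averaged 64.8 ± 37.4 CPM (a TMM-scaled share of counts; SD, n = 4) in its controls and 37.4 ± 7.25 where Ikbkb was deleted (log2 fold change -0.79, SE 0.33, adjusted p = 0.988 by edgeR). Irf1 averaged 199 ± 61.9 and 166 ± 90.5 CPM (log2 fold change -0.26, SE 0.4, adjusted p = 1.0), and the groups overlapped for both genes. All 12 cDC1 markers had counts in every library. Their summed level ran from 781 to 8618 CPM. The 15 macrophage and monocyte markers summed to 3892 to 17734 CPM and 12 fibroblast and endothelium markers to 6357 to 31393 CPM. These sums lean on a few abundant genes and do not measure cell shares. Spp1 gave 5853 of 6929 CPM in Irf1 control 1 (Lyz2 181 CPM) and 5318 of 17734 CPM in Irf1 control 4. Col3a1 gave 10475 of 25358 CPM in Irf1 control 1, followed there by Sparc (5383 CPM), Col1a2 (5333 CPM) and Col1a1 (2231 CPM). The endothelial Pecam1 had 17.8 CPM in that library. Of 7 melanoma markers, 1 had a count in every library, and the 7 summed to 2.28 to 16.8 CPM. Whether YUMM1.7 cells express these genes was not tested, so this low sum does not show that tumour RNA was absent. In bulk RNA, fewer cells of a type and less RNA per cell cannot be told apart.

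By counts per length, 4 mitochondrial members (mt-Cytb, mt-Nd1, mt-Co1 and mt-Nd5) ranked highest among the members. This ranks counts only, and the counts of members with sequence copied elsewhere are uncertain, as described below. The log2 levels of mitochondrial members had a pooled SD of 0.57 between libraries of a group, against 0.31 for the nuclear ones. mt-Cytb, the cytochrome b of complex III, had the highest mean level over all libraries, 7167 CPM per kb of exon. mt-Nd1, a membrane core subunit of complex I, followed at 3579.7 CPM per kb, and mt-Co1, the catalytic subunit of cytochrome c oxidase, at 3012 CPM per kb. mt-Nd5, mt-Nd2, mt-Nd4 and mt-Nd6, all core subunits of complex I, averaged 718, 618, 571 and 235 CPM per kb. The SDs over the 16 libraries, 2935 for mt-Cytb, 1442 for mt-Nd1 and 885 for mt-Co1, leave the order of mt-Nd1 and mt-Co1 within the spread. The nuclear member with the highest level was Atp5b, the catalytic β subunit of ATP synthase, at 652 CPM per kb (SD 195), between mt-Nd5 and mt-Nd2.

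The remaining mitochondrial members were close to absent from the count table. Over all 16 libraries together, mt-Co2 (the copper-carrying subunit of cytochrome c oxidase) had 1 count, mt-Atp8 had 1 and mt-Atp6 (the membrane proton channel of ATP synthase) had 5, against 2711133 for mt-Cytb. mt-Nd3, a small core subunit of complex I, had 2430. Complex V was thus represented by its nuclear genes alone. Of the mitochondrial genes just named, mt-Co2, mt-Atp6 and mt-Nd3 are copied almost letter for letter on chromosome 1. In GENCODE M21 (build GRCm38), 7 annotated pseudogenes lie side by side on the minus strand between chr1:24611535-24616197. Of the 75-base stretches of mt-Co2 and mt-Atp6, 99.5% were also found in another transcript, and of mt-Nd3, 97.8%. For mt-Nd4 this was 61.5%, for mt-Co1 39.8%, for mt-Nd2 5.71%, for mt-Nd5 1.66%, and for mt-Nd1, mt-Cytb and mt-Nd6 0.0%. mt-Atp8 also shared 0.0% yet had 1 count. Its gene overlaps that of mt-Atp6 on the same strand (chrM:7766-7969 and chrM:7927-8607). The search covered annotated transcripts only, so 0.0% does not show that a gene has no copy in the genome. The copy of mt-Atp6 ends at chr1:24614651 and that of mt-Co2 starts at chr1:24614885. Unannotated bases between them, where a copy of mt-Atp8 could lie, were not searched. How the authors' counting treated reads with several matches was not given in the sources used here, so the levels of mt-Nd3, mt-Nd4 and mt-Co1 are uncertain. The share of these genes' reads that were not counted was not tested.

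The boundary inside mt-Co1 shows what a read meets there. The shared run of 479 bases covers positions 1067 to 1545 of the transcript, up to its last base, and matches positions 14 to 492 of the pseudogene Gm29216. Below, the first stretch is mt-Co1 (chrM:6334-6453, plus strand) and the second is the first 73 bases of Gm29216 (chr1:24616125-24616197, minus strand). Both are GENCODE M21 transcripts. Capitals mark the first 60 bases of the identical run, and lower case the unshared sequence before it.
mt-Co1: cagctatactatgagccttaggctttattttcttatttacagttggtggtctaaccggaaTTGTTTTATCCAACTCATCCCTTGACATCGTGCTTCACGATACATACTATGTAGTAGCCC
Gm29216: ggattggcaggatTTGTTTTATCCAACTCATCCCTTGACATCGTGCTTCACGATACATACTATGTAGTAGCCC
A 75-base read lying wholly in the capitals and beyond has the same letters at both loci, while one that reaches into the lower case does not.

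**Figure D1:**
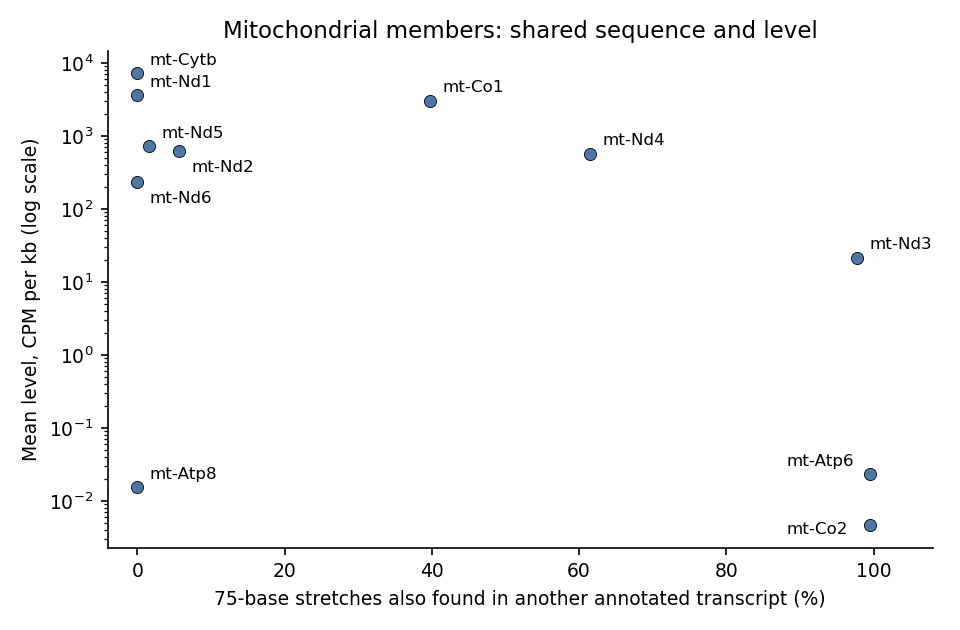
Mean level over 16 libraries (CPM per kb, log scale) of each of the 11 mitochondrial members against the percentage of its 75-base stretches found in another annotated transcript. mt-Co2 and mt-Atp6 at 99.5% and mt-Atp8 at 0.0% are near 0 counts, and mt-Nd3 at 97.8% lies between them and the abundant members.

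Counts mapped to the 11 mitochondrial members summed to 23085, 26821, 8486 and 32060.1 CPM in Ikbkb controls 1 to 4. Ikbkb-deleted libraries 1 to 4 had 14499, 21209, 28924 and 20195 CPM. In the Irf1 controls they summed to 13081, 14994, 14158 and 26308 CPM, while with Irf1 deleted the sums were 16394, 18761, 14992 and 12339 CPM. All 4 groups overlapped, and single libraries stood apart within them. Ikbkb control 3 was the lowest of all, and Ikbkb-deleted 1 was the lowest of its group. These same libraries carried the highest summed cDC1 markers, 8220.1 and 8618 CPM, against at most 2467 CPM in the rest of the Ikbkb set. Irf1 control 4 was the highest of the Irf1 set, and it also held the highest macrophage and monocyte marker sum (17734 CPM) and the lowest fibroblast and endothelium marker sum of that set (11578 CPM). The part of cell composition in these levels was not tested.

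The 85 nuclear members summed to a narrower range. They reached 21399, 23313, 19707 and 26234 CPM in Ikbkb controls, then 23014, 23924, 25345 and 21864 CPM with Ikbkb deleted. For Irf1 controls the sum was 13685, 12550.4, 11636 and 16329.9 CPM, and with Irf1 deleted 13506, 15619, 13176 and 19232 CPM. Every Ikbkb library lay above every Irf1 library, whatever its deletion state. As a share of raw counts, which is not rescaled by TMM, nuclear members took 1.61% to 2.56% of the Ikbkb libraries and 1.19% to 1.97% of the Irf1 libraries, so on that scale the sets overlapped. The ratio of mitochondrial to nuclear counts ran from 0.431 in Ikbkb control 3 to 1.61 in Irf1 control 4.

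**Figure D2:**
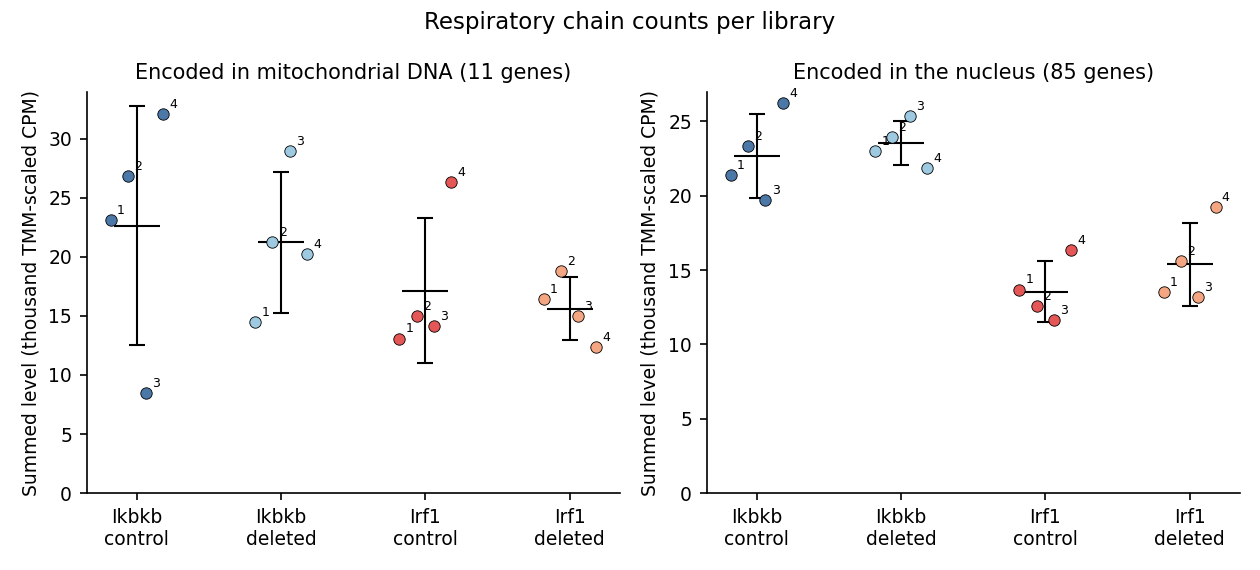
Summed TMM-scaled CPM of the 11 mitochondrial and 85 nuclear members in each library, with group mean and SD (n = 4 per group). Points are numbered by replicate. The nuclear sums of the Ikbkb set (19707 to 26234 CPM) lie above those of the Irf1 set (11636 to 19232 CPM), and the mitochondrial sums overlap.

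By complex, summed nuclear counts were largest for complex V, at 8658 ± 677 CPM in Ikbkb controls, 9051 ± 569 in Ikbkb-deleted, 5053 ± 330.1 in Irf1 controls and 6121 ± 1071 in Irf1-deleted libraries (SD, n = 4). Complex I followed with 6448 ± 1069, 6636 ± 839.5, 4024 ± 975 and 4293 ± 821 CPM. Complex III had 3034 ± 394, 3187 ± 213, 1719 ± 302 and 1963 ± 397 CPM. Complex IV had 2816 ± 561, 2913 ± 508, 1708 ± 729 and 1717 ± 363 CPM. Complex II had 1708 ± 156, 1750.2 ± 55.6, 1046 ± 70.8 and 1289 ± 169.8 CPM. The sets did not overlap in the sums of complexes II, III and V, and did overlap in those of complexes I and IV. This holds on the TMM scale. As CPM of the raw library total the sets overlapped in every complex (complex II: lowest Ikbkb library 1277 CPM, highest Irf1 library 1574 CPM; complex III: 2137 and 2577 CPM; complex V: 6445 and 7863 CPM), and complex III also overlapped per kb. The mitochondrial part of complex III, mt-Cytb alone, summed to 10421 ± 4945, 9833 ± 2557, 6476 ± 2136 and 6067 ± 802 CPM in the same order. The mitochondrial part of complex I had 7369 ± 3384, 6659 ± 1982, 5886 ± 2402 and 5252 ± 1038 CPM, and that of complex IV 4822 ± 1882, 4714 ± 1471, 4773 ± 1636 and 4303 ± 861 CPM. Within each set the control and deleted groups overlapped in all of these sums but 1. Nuclear complex II summed to 1147, 1029, 1023 and 983 CPM in Irf1 controls, against 1181, 1257, 1179 and 1537 CPM with Irf1 deleted, all of the latter above all of the former. None of its 4 genes was called for Irf1 deletion (by edgeR, 0 at an unadjusted p under 0.05; their log2 fold changes were 0.21 to 0.36).

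Of the 96 members, 90 passed the filter on low counts (82 nuclear, 8 mitochondrial) and entered the test, edgeR's quasi-likelihood fit with Benjamini-Hochberg adjustment over 16040 genes. The 6 that did not were mt-Co2, mt-Atp6, mt-Atp8, Cox7b2, Cox8b and Cox8c. Neither deletion gave a called member at an adjusted p under 0.05. Both deletions are driven from Xcr1, and the libraries also held counts of macrophage and fibroblast markers. How far this would dilute a change confined to cDC1s was not tested. Deletion of Ikbkb gave 0 of 90, beside 0 of all genes (0.0%), and 0 members at an unadjusted p under 0.05, where 769 genes of all were. Deletion of Irf1 also gave 0 of 90 beside 0.0% of all genes, and 5 members were at an unadjusted p under 0.05, where 419 genes of all were. The difference between the deletions called 0 members and 0.0% of all genes, with 0 members and 455 genes at an unadjusted p under 0.05. DESeq2 called 0 members in each comparison (38, 6 and 12 genes of all), and limma voom with quality weights called 0 members and 0 genes in each.

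The sizes of these differences were small for most members. After Ikbkb deletion the median log2 fold change was -0.1 over the 8 mitochondrial and 0.05 over the 82 nuclear members, against -0.02 over all genes. Both medians changed sign with single libraries: the mitochondrial one ran from -0.38 without Ikbkb control 3 to 0.09 without Ikbkb control 4, and the nuclear one from -0.08 without Ikbkb-deleted 3 to 0.17 without Ikbkb control 4. Values for mt-Cytb (-0.08, SE 0.33), mt-Co1 (-0.03, SE 0.32) and mt-Nd1 (-0.17, SE 0.36) had standard errors larger than themselves. The members with the smallest p were Atp5g1, which encodes the c-ring of ATP synthase (0.27, SE 0.2), and Cox6a1 (0.16, SE 0.16) on the positive side, each at an adjusted p of 1.0 by edgeR. On the negative side they were Cox4i2 (-1.49, SE 1.1) and Cox6a2 (-0.84, SE 0.74), both tissue-restricted isoforms of cytochrome c oxidase near the detection limit.

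After Irf1 deletion the medians were -0.17 for mitochondrial and 0.02 for nuclear members, against -0.02 over all genes. They changed sign too, to 0.15 for mitochondrial members without Irf1 control 4, and to -0.09 for nuclear members without Irf1-deleted 4 (0.28 without Irf1 control 4). The 5 members at an unadjusted p under 0.05 all had positive values and an adjusted p of 1.0. Among them were Atp5a1, the α subunit of ATP synthase (0.42, SE 0.16) and Ndufv1, the NADH-binding subunit (0.53, SE 0.22). Complex III contributed Cyc1, its cytochrome c1 (0.34, SE 0.15), and Uqcrc1, a core subunit of complex III (0.38, SE 0.17). Ndufv1 measured 180.3, 205, 182 and 140.2 CPM in Irf1 controls, against 181, 220.2, 214 and 403 CPM with Irf1 deleted, so its mean rests largely on Irf1-deleted 4. Atp5a1 measured 1282, 1171, 1174 and 847 CPM against 1323, 1434, 1417 and 1819.9 CPM, groups that did not overlap. It was named for its small p, and the share of all genes that separate in this way was not computed. On the negative side the smallest p belonged to Atp5l (-1.4, SE 0.75) and Cox7c (-0.43, SE 0.36). Without Irf1 control 4, Cox7c gave 0.04 and Atp5l -0.83. For the difference between the deletions the log2 values were 0.5 for Ndufv1 (SE 0.32), -1.06 for Atp5l (SE 1.05) and -0.43 for Uqcrq (SE 0.48), each at an adjusted p of 1.0. Without Irf1 control 4, Uqcrq gave 0.12 and Atp5l -0.5, and Ndufv1 gave 0.19 without Irf1-deleted 4.

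The differences that passed the test lay between the sets. With the mean of both Irf1 groups set against the mean of both Ikbkb groups, 68 of 90 members were called, and all 68 were lower in the Irf1 set. Across all genes 28.0% were called and 13% were called lower. Nuclear members gave 66 of 82, with a median log2 fold change of -0.67, and mitochondrial members gave 2 of 8, with a median of -0.34, against a median of 0.01 over all genes tested. A count in which all 8 Irf1 libraries lay below all 8 Ikbkb libraries was met by 9 nuclear and 0 mitochondrial members, and by 2.26% of all genes. The 9 were Ndufa9, Sdhb, Sdhd, Cyc1, Uqcrc2, Uqcrfs1, Cox7a2l, Atp5f1 and Atp5o. Of the 68 calls, 53 held in each of the 16 fits that left out 1 library, and 15 were lost in at least 1 of them.

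**Figure D3:**
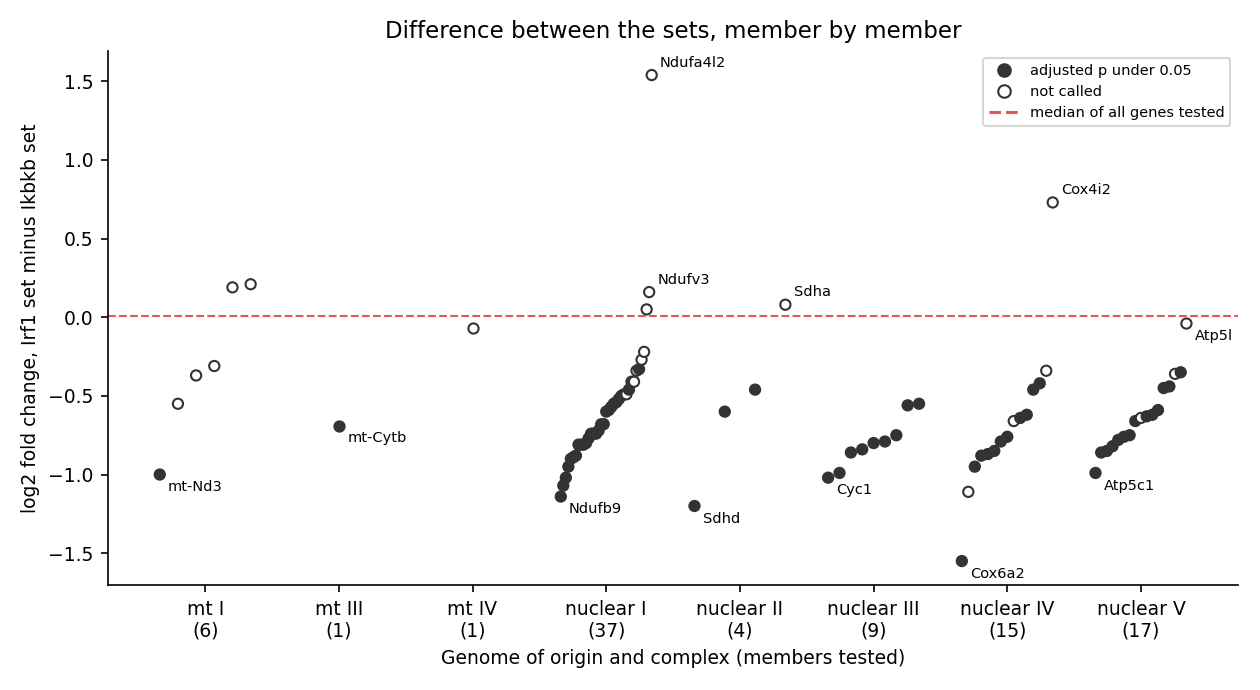
Log2 fold change of the Irf1 set over the Ikbkb set for each of the 90 members tested, by genome of origin and complex. Filled points are called at an adjusted p under 0.05 and the dashed line is the median of all genes tested (0.01). All 68 filled points lie below it.

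Complex III, which passes electrons from ubiquinol to cytochrome c, was lower throughout: 9 of 9 nuclear members were called, with a median of -0.8. Cyc1 measured 511, 545, 472 and 710.5 CPM in Ikbkb controls, 551, 554, 641 and 528 in Ikbkb-deleted, 273, 254, 235 and 229 in Irf1 controls and 274, 329.5, 284 and 366 in Irf1-deleted libraries. The highest Irf1 library was thus below the lowest Ikbkb library, and the log2 fold change was -1.02 (SE 0.11, adjusted p = 0.000137). Uqcrfs1, the Rieske iron-sulphur protein, ran from 271 (median 310.3) to 337 CPM in the Ikbkb set and from 135 (median 159) to 225 CPM in the Irf1 set (-0.84, SE 0.12, adjusted p = 0.000288). The core subunit Uqcrc2 ran from 312 (median 387) to 447 CPM and from 187 (median 225) to 305 CPM (-0.79, SE 0.11, adjusted p = 0.000277). The other 6 had log2 fold changes between -0.99 (Uqcr10) and -0.55 (Uqcrc1). The mitochondrial subunit, mt-Cytb, was called at -0.69 (SE 0.24, adjusted p = 0.0392), from 3844 (median 10041) to 15438 CPM in the Ikbkb set against 4993 (median 5839) to 9629.8 CPM in the Irf1 set. Its call was lost in 13 of the 16 fits that left out 1 library, where its adjusted p ran from 0.0029 to 0.089.

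Complex II divided by subunit. Sdhd, a membrane anchor of succinate dehydrogenase, measured 672, 658, 505 and 815 CPM in Ikbkb controls and 604, 659, 853 and 633 in Ikbkb-deleted libraries. In the Irf1 set it measured 281, 219, 209 and 343 CPM in controls and 299, 330.4, 244 and 443 in deleted libraries (log2 fold change -1.2, SE 0.15, adjusted p = 0.000212), again without overlap. The iron-sulphur subunit Sdhb ran from 438 (median 481) to 537 CPM and from 282 (median 306) to 411 CPM (-0.6, SE 0.09, adjusted p = 0.000428). The other anchor, Sdhc, was called at -0.46 (SE 0.13, adjusted p = 0.014). Sdha, the catalytic flavoprotein, was not called (0.08, SE 0.13, adjusted p = 0.721). It ran from 321 (median 394) to 491 CPM in the Ikbkb set and from 244 (median 432) to 535 CPM in the Irf1 set, a full overlap. Whether Sdha differs from the other subunits of its complex was not tested.

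**Figure D4:**
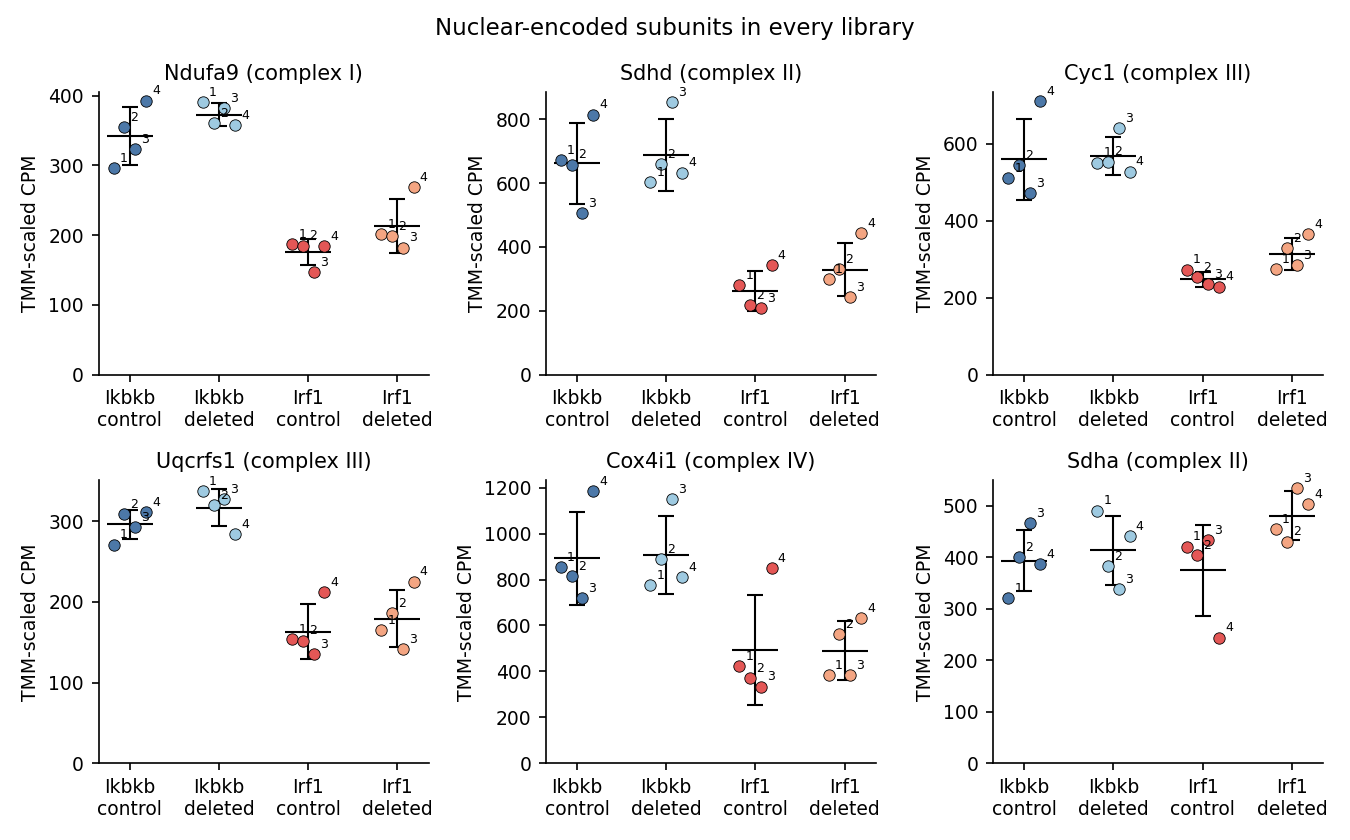
TMM-scaled CPM of 6 nuclear-encoded subunits in every library, with group mean and SD (n = 4) and points numbered by replicate. Ndufa9, Sdhd, Cyc1 and Uqcrfs1 do not overlap between the sets, Cox4i1 overlaps through Irf1 control 4 (850.4 CPM), and Sdha overlaps throughout.

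Complex I, the NADH dehydrogenase, had 29 of 37 nuclear members called lower, with a median of -0.6. Ndufa9, an accessory subunit next to the ubiquinone site, ran from 296 (median 359) to 393 CPM in the Ikbkb set and from 147 (median 186) to 269 CPM in the Irf1 set (-0.88, SE 0.1, adjusted p = 0.000177), without overlap. The membrane-arm subunits Ndufb9 (-1.14, SE 0.21, adjusted p = 0.00114), Ndufb8 (-1.02, SE 0.19, adjusted p = 0.00151) and Ndufb6 (-0.95, SE 0.2, adjusted p = 0.00242) gave large differences, as did Ndufa4 (-1.07, SE 0.24, adjusted p = 0.00375), a subunit that later work assigns to complex IV. In these 4 the sets overlapped through Irf1 control 4, and for Ndufb8 through Irf1-deleted 4 as well (290.0 and 277 CPM, against 254 CPM in the lowest Ikbkb library). For Ndufb9 that library had 209 CPM, where the other Irf1 libraries had at most 167 and the lowest Ikbkb library had 185. Of the members highest per length, Ndufa8 was called (-0.54, SE 0.16, adjusted p = 0.0211) and Ndufa2 was not (-0.49, SE 0.18, adjusted p = 0.0562). Core subunits were split: Ndufs8 (-0.74), Ndufv1 (-0.55), Ndufv2 (-0.74) and Ndufs3 (-0.33, lost in 9 of 16 fits without 1 library) were called, and Ndufs1 (-0.22, adjusted p = 0.188) and Ndufs7 (-0.27, adjusted p = 0.0678) were not. Ndufa10 (0.05), Ndufv3 (0.16), Ndufa5 (-0.34), Ndufb3 (-0.41) and Ndufa4l2 made up the rest of the uncalled.

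Of the mitochondrial complex I members, mt-Nd3 was called at -1.0 (SE 0.34, adjusted p = 0.0374). It rested on 53 to 276 counts per library, nearly all of its sequence is shared with chromosome 1, and its call was lost in 12 of the 16 fits without 1 library. The others gave -0.55 for mt-Nd1 (SE 0.26, adjusted p = 0.121), -0.37 for mt-Nd2, -0.31 for mt-Nd4, 0.19 for mt-Nd5 and 0.21 for mt-Nd6, none of them called. mt-Co1 of complex IV gave -0.07 (SE 0.22, adjusted p = 0.847).

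Complex IV, cytochrome c oxidase, had 11 of 15 nuclear members tested called lower, with a median of -0.76. Cox4i1, its nuclear subunit with the highest level per length, measured 719 (median 834) to 1185 CPM in the Ikbkb set and 333 (median 404) to 850.4 CPM in the Irf1 set (-0.87, SE 0.2, adjusted p = 0.00489). The small subunits Cox7b (-0.95, SE 0.19, adjusted p = 0.00213), Cox7a2 (-0.88, SE 0.22, adjusted p = 0.00883) and Cox6b1 (-0.76, SE 0.21, adjusted p = 0.0158) were called too. Cox7a2l, which links complexes III and IV in supercomplexes, ran from 70.0 (median 90.9) to 103 CPM and from 29.7 (median 48.5) to 62.5 CPM, without overlap (-0.85, SE 0.15, adjusted p = 0.00102).

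The tissue-restricted isoforms were at the edge of detection in all groups. Ndufa4l2, induced by hypoxia in other settings, ran from 0.263 (median 0.852) to 4.47 CPM in the Ikbkb set and from 1.59 (median 3.65) to 9.64 CPM in the Irf1 set, the largest positive value among members (1.54, SE 0.61, adjusted p = 0.0726), which was not called. Cox4i2 (0.73, adjusted p = 0.511), Cox7a1 (-1.11, adjusted p = 0.183) and Cox6b2 (-0.34, adjusted p = 0.822) were not called. Cox6a2, the muscle form of Cox6a, was called at -1.55 (SE 0.54, adjusted p = 0.0413), from 0.841 (median 2.1) to 5.94 CPM in the Ikbkb set and 0.242 (median 0.654) to 1.89 CPM in the Irf1 set. Skeletal muscle markers moved with it: 7 of 8 tested were called lower, and the 12 on that list summed to 27.9 to 910.3 CPM in the Ikbkb set and 7.07 to 17.8 CPM in the Irf1 set, with 4 of 12 counted in every library. Their part in the result was not tested. Cox6a2 lost its call in 12 of 16 fits without 1 library. Cox7b2 had counts in 2 libraries, Cox8b in 5 and Cox8c in 1.

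Complex V, the ATP synthase, had 14 of 17 members called lower, with a median of -0.64. The rotating shaft subunit Atp5c1 ran from 722 (median 961) to 1145 CPM in the Ikbkb set and from 360.5 (median 469) to 726 CPM in the Irf1 set (-0.99, SE 0.14, adjusted p = 0.000277). The catalytic Atp5b ran from 2925 (median 3344) to 4271 CPM and from 1314 (median 2093) to 2931 CPM (-0.75, SE 0.12, adjusted p = 0.00065). Its partner Atp5a1 gave -0.45 (SE 0.12, adjusted p = 0.00963). For Atp5c1 and Atp5b the sets met only at Irf1-deleted 4. The peripheral stalk genes Atp5f1 (-0.82, SE 0.14, adjusted p = 0.000875) and Atp5o (-0.76, SE 0.13, adjusted p = 0.000714) did not overlap. The small subunits Atp5mpl (-0.86, SE 0.24, adjusted p = 0.014) and Atp5e (-0.85, SE 0.26, adjusted p = 0.0259) were called, the latter lost in 6 of 16 fits without 1 library. Atp5g2 (-0.64), Atp5s (-0.36) and Atp5l (-0.04, SE 0.51) were not, and the last was low, at 0.203 to 3.97 CPM. Atp5g2 shared 35.8% of its 75-base stretches with other transcripts, so its level is uncertain, as are those of Atp5o (34.2%), Ndufb6 (27.8%) and Ndufa13 (25.6%). The other 81 nuclear members shared less than 25%, and 48 shared none.

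The same comparison could be made in separate libraries, controls against controls and deleted against deleted. Both took their spread from 1 fit over all 16 libraries, so they are not independent. Between the controls 26 members were called, all lower in the Irf1 controls, beside 12.6% of all genes called and 5.84% called lower. Between the deleted groups 18 were called, all lower, beside 8.58% of all genes and 3.54% called lower. No mitochondrial member was called by edgeR in either (0 and 1 at an unadjusted p under 0.05). Called in both were 17 nuclear members, which is 65.4% of the first list and 94.4% of the second. The matching shares over all genes were not computed, so these shares do not set the members apart from other genes. Of the 82 nuclear members, 75 had a negative log2 fold change in both, where 38.7% of all genes did. Cyc1 gave -1.18 (SE 0.15, adjusted p = 0.00391) between the controls and -0.86 (SE 0.15, adjusted p = 0.00949) between the deleted groups. Sdhd gave -1.33 (SE 0.22, adjusted p = 0.00563) and -1.06 (SE 0.22, adjusted p = 0.0134), and Ndufa9 gave -0.96 (SE 0.15, adjusted p = 0.00505) and -0.81 (SE 0.15, adjusted p = 0.00999). The nuclear medians were -0.66 and -0.68, and the mitochondrial medians -0.28 and -0.4. The mitochondrial medians ran from -0.61 (without Irf1 control 4) to -0.12 (without Ikbkb control 4) between controls, and from -0.57 (without Ikbkb-deleted 1) to -0.18 (without Ikbkb-deleted 3) between deleted groups, each fit leaving out 1 library. The nuclear medians ran from -0.89 to -0.52 and from -0.81 to -0.59.

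These counts moved with single libraries, and so did the calls over all genes, given in brackets. The 26 calls between the controls (2018) became 64 (2404) without Irf1 control 4 and 14 (1180) without Irf1 control 1. They became 13 (850) without Irf1 control 2 and 13 (782) without Irf1 control 3. Without Ikbkb control 2 there were 15 (1067), and without Ikbkb control 4 also 15 (1374). The 18 calls between the deleted groups (1376) became 47 (1700) without Irf1 control 4 and 10 (1020) without Irf1 control 2. They became 11 (1150) without Ikbkb control 1 and 11 (1200) without Ikbkb control 2. They became 10 (894), 7 (458) and 4 (602) without Ikbkb-deleted 1, 2 and 3. Without Irf1-deleted 1, 2 and 3 they became 4 (656), 5 (463) and 1 (110).

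The proportions among the mitochondrial counts also differed between the sets, a pattern chosen after its values were seen and given with no test. Part of mt-Co1 is shared with other transcripts, so its level, and each ratio or share that uses it, is uncertain. The part of shared sequence in this difference was not tested. mt-Cytb counts over mt-Co1 counts were 1.76, 2.41, 1.83 and 2.41 in Ikbkb controls, and 1.91, 2.32, 1.88 and 2.34 with Ikbkb deleted. In the Irf1 set the ratio was 1.33, 1.47, 1.31 and 1.33 in controls and 1.37, 1.33, 1.42 and 1.59 with Irf1 deleted, all below every Ikbkb library. Irf1 control 4 and Ikbkb control 3, which stood apart in total mitochondrial counts, lay with their own sets in this ratio. mt-Co1 took 19.4% (median 22.2%) to 24.8% of mitochondrial counts in the Ikbkb set and 26.1% (median 27.7%) to 29.0% in the Irf1 set, and mt-Nd5 took 5.18% (median 5.68%) to 6.42% and 6.57% (median 8.16%) to 10.2%. mt-Cytb took 42.6% (median 46.2%) to 48.3% and 36.6% (median 38.3%) to 41.5%. Counts of mt-Nd5 over mt-Nd1 were 0.259 (median 0.301) to 0.387 in the Ikbkb set and 0.366 (median 0.484) to 0.638 in the Irf1 set, which overlapped at Irf1-deleted 4.

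**Figure D5:**
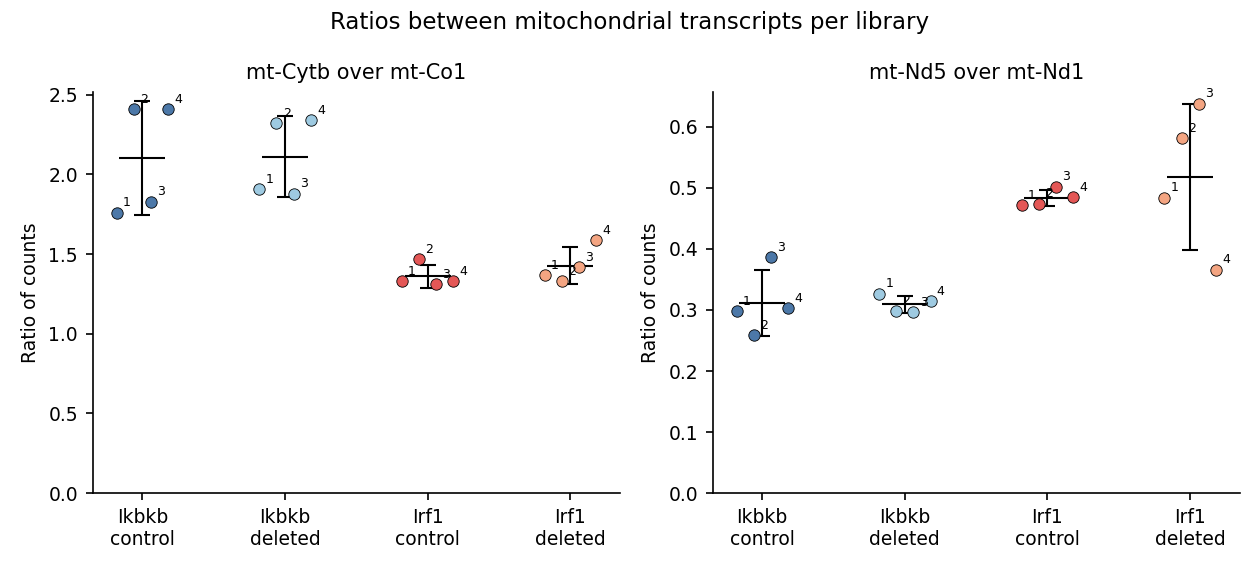
Ratio of counts per library for mt-Cytb over mt-Co1 and mt-Nd5 over mt-Nd1, with group mean and SD (n = 4) and points numbered by replicate. The first ratio is 1.76 to 2.41 in the Ikbkb set and 1.31 to 1.59 in the Irf1 set, and the second overlaps at Irf1-deleted 4 (0.366). Part of mt-Co1 is shared with other transcripts, so the first ratio is uncertain.

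Other properties moved with the difference between the sets. Markers of fibroblasts and endothelium were higher in the Irf1 set, with 10 of 12 called and a median log2 fold change of 1.28. Their sum was 6357 (median 9335) to 12132 CPM in the Ikbkb set and 11578 (median 19695) to 31393 CPM in the Irf1 set, and 11 of the 12 had counts in every library. The covariate was the log2 of this sum as CPM of the raw library total. With it edgeR called 0 of 90 members and 0 of 16040 genes. At an unadjusted p under 0.05 it left 13 nuclear and 0 mitochondrial members, and 2266 genes of all. The nuclear median became -0.16 with 63 of 82 negative, and the mitochondrial median -0.17 with 5 of 8 negative. On the TMM scale the sums of the sets overlap only through Irf1 control 4 and Ikbkb-deleted 4, so the parts of this sum and of the set cannot be told apart. With the cDC1 marker sum, taken in the same way, as a covariate 69 members and 4860 genes of all were called, and the nuclear median was -0.7. The cDC1 markers themselves had a median of -0.87 with 0 of 12 called by edgeR (2 at an unadjusted p under 0.05). T and NK cell markers had a median of -1.44 with 4 of 15 called lower. Macrophage and monocyte (1 of 15 higher), B cell (1 of 5 lower), neutrophil (1 of 5 higher), melanoma (1 of 3 higher) and keratinocyte (1 of 5 higher) markers had these calls.

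Transcript length moved with the difference as well. Nuclear members tested had a median exon length of 1.58 kb, against 3.93 kb for all genes. All genes up to 1 kb had a median log2 fold change of -0.46, those of 1 to 2 kb -0.28, those of 2 to 4 kb -0.11, and longer ones 0.29. Nuclear members in the same bins had medians of -0.67 (n = 20), -0.75 (n = 32), -0.63 (n = 20) and -0.65 (n = 10). Among genes up to 2 kb whose average log2 CPM reached 6, 57.9% of all 478 were called lower, with a median of -0.52, and 89.7% of the 39 nuclear members in that bin were, with a median of -0.76. The part of length in the members' difference was not tested.

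Lists of genes that build and feed the chain were read against the 28.0% of all genes called and 13% called lower. Of 77 subunits of the mitochondrial ribosome, which translates the mitochondrial members, 55 were called, all lower, with a median of -0.59. Among them were Mrps22 (-1.16, SE 0.2, adjusted p = 0.000757) and Mrpl28 (-1.02, SE 0.16, adjusted p = 0.000514), with 301 ± 62.2, 305 ± 74.4, 138 ± 29.4 and 162 ± 41.5 CPM for Mrpl28 in the 4 groups in the order used above. Complex I assembly factors gave 9 of 15 lower with a median of -0.52, led by Ndufaf5 (-1.23, SE 0.2, adjusted p = 0.000568) and Ndufaf6 (-1.18, SE 0.2, adjusted p = 0.000812). Assembly and copper or haem delivery for complexes II to IV gave 13 of 31 lower with a median of -0.52, among them Lyrm7 (-1.24, adjusted p = 0.0121), a chaperone of the Rieske protein, and Cox14 (-0.75, adjusted p = 0.0141). ATP synthase assembly and inhibition gave 2 of 4 lower (median -0.46), Tmem70 (-1.08) and Atpif1 (-0.6).

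Electron carriers, coenzyme Q synthesis and membrane carriers or channels gave 14 of 25 lower with a median of -0.46. Slc25a5, the ADP/ATP carrier, averaged 528 ± 46.7 and 525 ± 44.7 CPM in the Ikbkb groups and 257 ± 24.3 and 296 ± 60.7 CPM in the Irf1 groups (-0.93, SE 0.11, adjusted p = 0.000177). Coq10b (-1.41, SE 0.22, adjusted p = 0.000537) and Coq3 (-1.09, SE 0.23, adjusted p = 0.0029) belong to the coenzyme Q pathway. The citrate cycle gave 7 of 22 lower with a median of -0.19, among them Idh3a (-0.69), Fh1 (-0.61) and Dld (-0.54). Maintenance, transcription and RNA stability of mitochondrial DNA gave 5 of 29 lower with a median of -0.23 and 11 positive values, a share of calls near the 13% of all genes. Its largest value was Fastkd2, an RNA-binding protein of the mitochondrial ribosome's assembly, at 89.2 ± 21.3, 106 ± 49.9, 25.2 ± 9.1 and 32.4 ± 6.37 CPM (-1.77, SE 0.23, adjusted p = 0.000231). Regulators of respiratory gene transcription gave 2 of 14, both higher, with a median of 0.14, where 2407 of 16040 genes were called higher, a similar share. They were Epas1, which encodes the hypoxia-inducible factor HIF-2α (2.48, SE 0.61, adjusted p = 0.0071; also expressed in endothelium), and the coactivator Pprc1 (0.61, SE 0.19, adjusted p = 0.0253). In both deletions 0 genes of these lists were called by edgeR. At an unadjusted p under 0.05 were 2 genes of mitochondrial DNA maintenance and 2 regulators after Ikbkb deletion, and 5 ribosomal, 1 citrate cycle and 4 carrier genes after Irf1 deletion.

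Promoters of nuclear members were searched for 3 motifs on both strands, in windows from 250 bases before to 50 bases after the start, as RefSeq gives them for GRCm38.p6. Of 85 nuclear members 68 (80.0%) matched a window. The NRF1 motif, named for a factor known to act on respiratory genes, was in 17 of 68 (25%), against 5.19% of the 27025 genes with a window in the promoter table. The ETS motif CCGGAAGT of GABPA was in 5 (7.35%, against 4.31%), and the YY1 motif in 5 (7.35%, against 0.995%). Of the 54 matched members called lower between the sets, 14 held the NRF1 motif. Sdhd and Sdha, on opposite sides of the call, both held it, and Ndufb4 (called, -0.9) and Uqcr11 (called, -0.75, ETS motif) are shown beside them. Capitals mark each match to the named motif or its reverse complement in the 60 bases shown, all upstream of the RefSeq start. GENCODE M21, used for the genes above, starts Ndufb4 at chr16:37654453 and Sdha at chr13:74350280. By that annotation the Ndufb4 stretch and part of the Sdha stretch lie inside the gene. The stretches are Sdhd at chr9:50603894-50603953, Sdha at chr13:74350241-74350300, Ndufb4 at chr16:37654369-37654428 and Uqcr11 at chr10:80406853-80406912, all on the minus strand.
Sdhd: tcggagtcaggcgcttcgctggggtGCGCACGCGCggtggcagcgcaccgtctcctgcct
Sdha: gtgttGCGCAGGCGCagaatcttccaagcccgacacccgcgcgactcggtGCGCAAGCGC
Ndufb4: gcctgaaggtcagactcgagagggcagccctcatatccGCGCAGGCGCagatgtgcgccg
Uqcr11: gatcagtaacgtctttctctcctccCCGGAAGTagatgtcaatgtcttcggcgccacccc
A match here describes letters in a window and no binding was measured. Sdha carries the motif and was not called, so holding these letters did not go with a call in every member.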

How the data were processed

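Gene counts of 16 libraries were deposited by the authors as raw counts per Ensembl gene. Per the submitters' processing notes, bcl2fastq 2.17.1.14, cutadapt 1.10, STAR 2.5.3a, HTSeq 0.6.1p1 and build mm10 were used. The annotation release and strand setting are not given in the sources used here. Of 32697 genes, 32684 matched a symbol. Counts were scaled by TMM, filtered by filterByExpr (minimum count 10, minimum total 15) and fitted in edgeR 4.0.16 (R 4.3.3) with 1 mean per group over all 16 libraries, by the quasi-likelihood test with Benjamini-Hochberg adjustment over 16040 genes, called at an adjusted p under 0.05. The scripts were tested on simulated data. Total counts were 16478671 to 27433818 per library. DESeq2 1.42.0, limma 3.58.1 (voom), other scalings and filters, marker covariates and the omission of each library were alternatives. Replicates of a group differed beyond sampling noise. Shared 75-base stretches were counted over GENCODE M21 transcripts, an alternative added because no genome was used here. The members, lists and tests were chosen with earlier results of these data known. Named genes were the mitochondrial members, per complex the 2 highest nuclear members per kb and the called members (at most 4 a side), tissue-restricted isoforms, the smallest p on each side where none was called, and up to 4 called genes of each pathway list. The results of 1 member are counted but not reported by name here. Others named were chosen after their values were seen. The tissue-restricted isoform list had 1 of 5 tested called between the sets, with a median log2 fold change of -0.34.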

Additional observations from a re-analysis of the deposited data

Results flagged for a closer look

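Within groups of 4 libraries, 1 library stood apart from the others in 23 of 236 groups checked, by Dixon's criterion. For independent groups chance gives about 1 in 20. The groups checked share libraries, and the sums repeat the genes in them, so that rate is no measure for this count. Most of the flagged cases were Irf1 control 4, high in each case. There the mitochondrial members summed to 26308 CPM (13081 to 14994 in the other Irf1 controls), all members to 42638 CPM, mitochondrial complex I to 9459.6 CPM and mitochondrial complex IV, which is mt-Co1 alone, to 7218 CPM. Single mitochondrial genes in that library were mt-Nd1 at 4702 CPM, mt-Nd2 at 1043, mt-Co1 at 7218, mt-Nd3 at 10.3, mt-Nd5 at 2280.4 and mt-Nd6 at 285 CPM. Small nuclear subunits in the same library were Ndufa2 at 225 CPM (91.4 to 112 in the others), Atp5e at 279, Cox7c at 13.5, Uqcr11 at 170.3, Atp5mpl at 137, Cox6b1 at 416 and Uqcrq at 343 CPM.

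In Irf1 control 3, Ndufa9 was low at 147 CPM (184 to 187 in the others). In Ikbkb control 4, Atp5e was high at 301 CPM (181 to 201). In Ikbkb control 3, Cox7a2l was low at 70.0 CPM (98.8 to 99.6) and mt-Nd6 at 34.4 CPM (148 to 151). In Irf1-deleted 4, Atp5b was high at 2931 CPM (2048 to 2147) and Uqcrc2 at 305 CPM (218 to 230.4).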

How the results depend on the processing

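Beside each count of called members, brackets give the calls over all genes. Between sets, RLE and upper-quartile scaling, a 5 CPM filter, DESeq2, limma voom and the cDC1 covariate called 64 to 77 members (4415 to 6326). There were 57 (3753) with no filter and 53 to 75 (3506 to 4809) without 1 library. With the fibroblast and endothelium covariate there were 0 (0), and the nuclear median was -0.16. Between controls there were then 0 (0) with a median of -0.19, and between deleted groups 0 (0) with -0.2. Negative values among the nuclear members between the sets went from 77 to 63 of 82 with this covariate. Among genes named in the text, Atp5e (0.15), Atp5mpl (0.03), Atpif1 (0.05), Coa4 (0.1), Cox6b1 (0.05), Uqcrq (0.12) and Pprc1 (-0.0) changed sign. The cause was not tested. Between controls, 26 calls (2018) became 17 (1199) with no filter, 74 (4130) with limma voom and 13 to 64 (782 to 2404) without 1 library. Between deleted groups, 18 (1376) became 11 (1239) under upper-quartile scaling, 8 (718) with no filter and 28 (1650) with the 5 CPM filter. They became 39 (2490) with DESeq2, 60 (2990) with limma voom and 33 (2029) with the cDC1 covariate. Without 1 library they were 1 to 47 (110 to 1776). Nuclear complex II in Ikbkb-deleted libraries was 1674 CPM by raw library total. Leaving out Ikbkb control 3 and Ikbkb-deleted 1 together, an alternative added after seeing the data, left 73 calls (4814) between the sets. No paired analysis was possible because replicate numbers follow accession order only. mt-Co2, mt-Atp6 and mt-Atp8 fell under the count filter and were not tested.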
